A study of Mus musculus with 24 samples.

Results

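Fetub, Hamp, Obp2a, Serpinb1a and Susd3 are 5 genes of the mouse adrenal whose RNA level differed widely between gonadectomised and intact males. They were chosen by the log2 signal of gonadectomised against intact males, from 21957 genes with a symbol on the array, each represented by the probe set with the highest mean. All 5 have 1 probe set and are among the 14411 genes tested, those over a log2 signal of 5 in at least 4 arrays. The arrays measured RNA of whole adrenal glands of adult mice of 7 months on a mixed sv129-C57Bl/6 background. There were 6 groups of 4 arrays: KO and WT females, KO and WT males gonadectomised (GDX) during their last 2 months, and KO and WT intact males.

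KO mice carried Prkar1afl/fl;cre/+;mTmG/mTmG, with Cre recombinase expressed from Cyp11b2, which encodes aldosterone synthase in the outer cortical zone (zona glomerulosa), and mTmG a fluorescent reporter of Cre activity. WT females carried Prkar1afl/+;cre/+;mTmG/mTmG. WT GDX males were mixed: Prkar1a+/+;+/+;mTmG/mTmG on array 1, Prkar1a+/+;cre/+;mTmG/+ on array 2, Prkar1a+/+;cre/+;mTmG/mTmG on array 3 and Prkar1afl/+;cre/+;mTmG/mTmG on array 4. WT intact males carried Prkar1afl/fl;+/+;mTmG/mTmG. Every female group and every KO group thus carried Cre, while the WT intact males and WT GDX array 1 did not. Gonadectomy in WT males was therefore compared across different control genotypes. Comparisons of KO with WT males likewise mix the knockout with these control genotypes. The replicates are labelled as biological, with nothing more on the animals, and p-values measure the spread between these samples.

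The product of Prkar1a restrains the catalytic subunits of protein kinase A until cyclic AMP releases them. In mice the testes supply androgens that remove the X-zone, the innermost layer of the young cortex, and many adrenal genes differ between the sexes. Fetub encodes fetuin-B, a liver-derived plasma protein of the cystatin superfamily that inhibits the egg protease ovastacin and so keeps the zona pellucida open to sperm. Hamp encodes hepcidin, the peptide that closes the iron exporter ferroportin and that the liver makes in response to BMP and interleukin-6 signals. Obp2a encodes an odorant-binding lipocalin, Serpinb1a an intracellular inhibitor of neutrophil serine proteases, and Susd3 a small membrane protein with a sushi domain whose human counterpart is known as an oestrogen-responsive gene of breast cancer cells.

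The 5 genes lie at 5 places of 4 chromosomes (assembly GRCm38.p6): Fetub at chr16:22918382-22939768, Hamp at chr7:30942368-30944029, Obp2a at chr2:25697577-25703326, Serpinb1a at chr13:32842092-32853206 and Susd3 at chr13:49230511-49248706. RefSeq start-site windows, 250 bases before to 50 after a start, were held for 4 of the 5. Shown here are those of Fetub (the second of its 2 windows, on the plus strand, chr16:22919972-22920271), Hamp (minus strand, chr7:30943980-30944279) and its neighbouring copy Hamp2 (minus strand, chr7:30924132-30924431). Hamp and Hamp2 are shown because their windows are nearly the same while their signals were not.
Fetub: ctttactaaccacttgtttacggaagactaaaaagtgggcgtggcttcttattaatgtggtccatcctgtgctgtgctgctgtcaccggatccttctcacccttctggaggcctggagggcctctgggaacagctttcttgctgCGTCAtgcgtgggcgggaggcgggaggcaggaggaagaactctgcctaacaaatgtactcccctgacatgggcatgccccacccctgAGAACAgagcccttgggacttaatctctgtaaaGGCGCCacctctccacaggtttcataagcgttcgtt
Hamp: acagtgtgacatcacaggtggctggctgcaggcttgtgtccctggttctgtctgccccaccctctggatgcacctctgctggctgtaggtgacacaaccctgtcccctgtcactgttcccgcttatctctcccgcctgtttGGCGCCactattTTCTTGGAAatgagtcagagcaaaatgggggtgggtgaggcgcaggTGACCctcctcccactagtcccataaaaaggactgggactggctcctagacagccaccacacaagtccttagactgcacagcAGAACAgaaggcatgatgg
Hamp2: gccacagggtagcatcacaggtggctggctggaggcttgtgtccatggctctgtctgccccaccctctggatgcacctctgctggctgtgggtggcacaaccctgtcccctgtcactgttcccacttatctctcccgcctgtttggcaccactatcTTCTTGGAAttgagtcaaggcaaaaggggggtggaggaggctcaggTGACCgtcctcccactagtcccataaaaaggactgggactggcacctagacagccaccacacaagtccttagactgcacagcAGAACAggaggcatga
Capitals mark matches, on either strand, to 5 motifs: AGAACA, a half-site of androgen and glucocorticoid receptors; TGACG, of cyclic AMP response elements; GGTCA, of oestrogen receptors; TTCNNNGAA, of STAT factors; and GGCGCC, the BMP response element described in hepcidin promoters.

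The Hamp window held GGCGCC at positions -109 to -104 and TTCTTGGAA at -97 to -89, with GGTCA on the minus strand and AGAACA after the start. The Hamp2 window held the same receptor half-sites and STAT match but no GGCGCC, although 276 of 297 aligned bases (92.93%) were identical. The second Fetub window held TGACG on the minus strand, AGAACA at -19 to -14 and GGCGCC after it, and its first window held none of the 5. The windows of Obp2a and Susd3 held GGTCA alone among the 5 motifs. Of 32851 windows of this length, 18.97% held AGAACA, 20.81% TGACG, 40.48% GGTCA, 8.3% TTCNNNGAA and 11.87% GGCGCC. A match describes letters in this window and no factor's binding.

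The labels were checked first. Prkar1a, the deleted gene, had a log2 signal of 6.67 to 7.35 in KO females against 8.43 to 8.54 in WT females, of 7.30 to 7.99 in KO GDX against 8.59 to 8.94 in WT GDX males, and of 6.89 to 8.47 in KO against 8.72 to 8.91 in WT intact males. The groups did not overlap in any of the 3 pairs, but in intact males 3 of 4 KO arrays were at 8.08 to 8.47 and the difference did not pass (-0.92 ± 0.23, adjusted p 0.160), whereas it passed in females (-1.43, adjusted p 5.83e-05) and GDX males (-1.19, adjusted p 0.00477). Prkar1a was also lower in KO females than at the midpoint of KO intact and KO GDX males (-0.67 ± 0.195, adjusted p 0.0102). Its knockout effect in females minus that in males did not pass (-0.37 ± 0.28, adjusted p 0.41). Comparisons of KO females with KO males thus set unlike Prkar1a levels side by side. Xist, from the inactive X, was 10.17 to 10.46 in females and 3.14 to 3.54 in males. All 10 steroidogenic marker genes of the cortex passed the filter (log2 of their summed signal 15.22 to 15.60 over the 24 arrays). WT intact male array 1 stood apart from the other 3 of its group in Serpinb1a and Susd3, not in Fetub, Hamp or Obp2a, so values that rest on it are also given without it. Nothing in the labels ties arrays to batches. Whole glands were measured, so fewer cells of a type and less RNA per cell cannot be told apart.

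Loss of the testes went with higher Fetub, Hamp, Obp2a and Serpinb1a and lower Susd3 in both genotypes, although Obp2a stayed under 5 on all 8 WT male arrays. These differences chose the genes and are a description with no test. In both genotypes the GDX and intact arrays did not overlap for any of the 5 genes, against 19.0% of all genes tested in KO and 9.29% in WT males, and nothing is read from this count since the choice fixed it. Among all genes tested, Fetub ranked 2nd among rises in KO and 6th in WT, Hamp 12th in KO and 4th in WT, Obp2a 4th in KO and 37th in WT, and Serpinb1a 5th in KO and 9th in WT. Susd3 ranked 6th among falls in KO and 4th in WT. The ranks of Hamp and Obp2a are rough, since both were under 5 on all 8 intact arrays and Obp2a also on all WT GDX arrays. Differences below are on the log2 scale ± the standard error of limma's model over all 24 arrays.

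**Figure D1:**
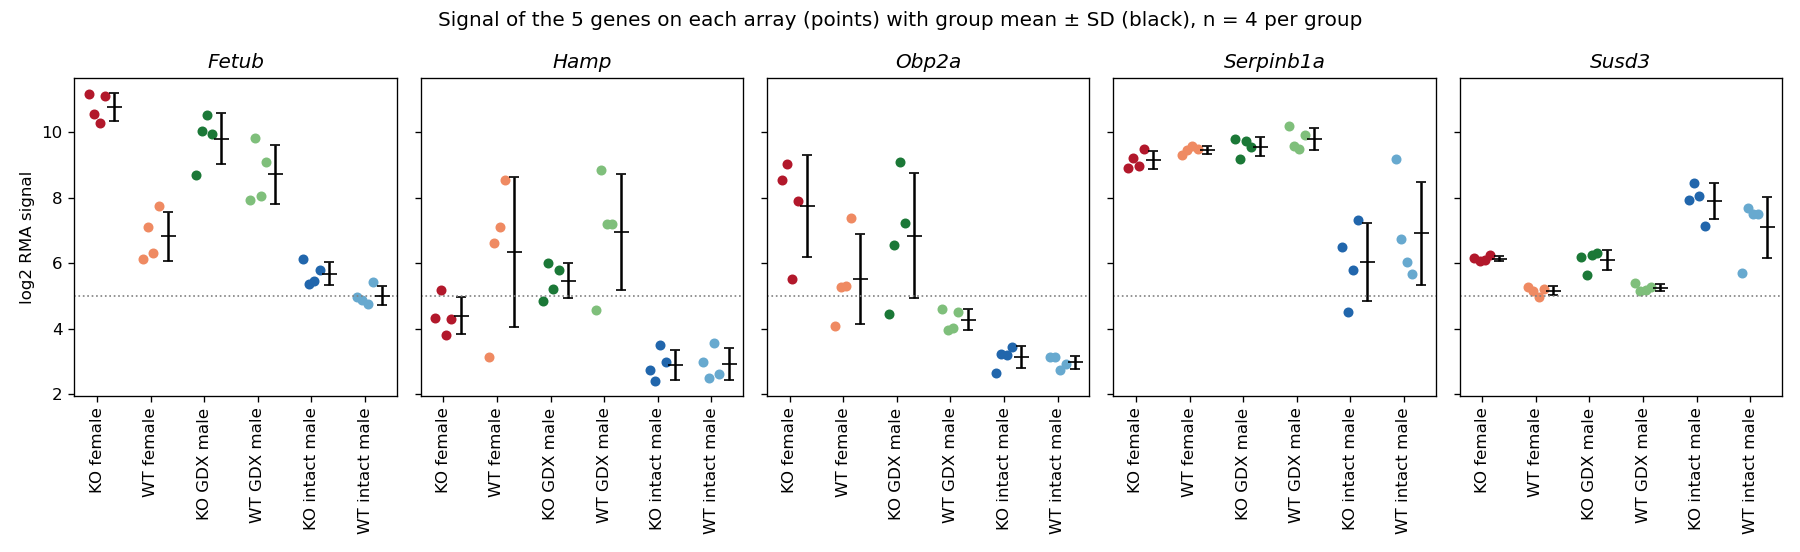
Log2 RMA signal (vertical axis) of the 5 genes on each of the 24 arrays, by group (horizontal axis), with points for arrays in the order of their replicate numbers, black bars for the group mean ± SD (n = 4) and a dotted line at 5, the level of the filter. On average both intact male groups lie lowest for Fetub, Hamp, Obp2a and Serpinb1a and highest for Susd3. WT intact male array 1 lies apart from its group for Serpinb1a (9.18) and Susd3 (5.71).

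Fetub was dim in intact males and bright after gonadectomy. Its log2 signal was 8.69, 10.03, 10.53 and 9.95 in KO GDX males against 6.12, 5.35, 5.44 and 5.80 in KO intact males. In WT males it was 7.92, 9.82, 8.04 and 9.08 after gonadectomy against 4.96, 4.88, 4.74 and 5.43 with testes. Every GDX array thus stood more than 2 log2 units above the intact arrays of its genotype, and the difference was 4.12 ± 0.41 in KO and 3.71 ± 0.41 in WT males. With 3 of the 4 WT intact males under 5, the size of the WT difference is measured against a dim level.

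Fetub also rose with the loss of Prkar1a in XX glands. It stood at 11.17, 10.55, 10.28 and 11.11 in KO females against 6.12, 7.11, 6.31 and 7.73 in WT females. The groups did not overlap, as in 14.0% of all genes tested that were higher in KO females. The rise was 3.96 ± 0.41 (15.6-fold, adjusted p 5.5e-07 in limma), in a comparison the choice of the gene did not use and in which 32.6% of all genes were called. In males, averaged over gonadectomised and intact, the difference was 0.88 ± 0.29 (adjusted p 0.0997), positive in both (1.09 ± 0.41 in GDX and 0.67 ± 0.41 in intact males). The knockout effect in females exceeded the mean effect in males by 3.08 ± 0.50 (adjusted p 0.000617), a test that called 14.0% of all genes (6.19% higher). The male difference did pass without KO GDX array 1 (adjusted p 0.0267) or WT GDX array 2 (adjusted p 0.0479). The WT females carried Cre and 1 floxed allele while WT intact males carried no Cre and WT GDX males were mixed, so sex and control genotype cannot be told apart in this difference of effects. Nor can sex be told apart from the lower Prkar1a level of KO females than of KO males.

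The level of Fetub in XX glands differed with genotype. The WT female mean of 6.82 ± 0.75 (SD, n = 4) lay 48.8% of the way between the WT intact (5.005 ± 0.30) and WT GDX (8.72 ± 0.90) means, and its difference from their midpoint was -0.04 ± 0.36 (adjusted p 0.97). The KO female mean of 10.78 ± 0.43 lay beyond the KO GDX mean (9.80 ± 0.78), and its difference from the midpoint of the KO male groups was 3.04 ± 0.36 (adjusted p 2.06e-06). The order of the means was KO females, KO GDX males, WT GDX males, WT females, KO intact males and WT intact males. Of neighbours in this order only WT GDX males and WT females did not overlap.

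Hamp was readable in most GDX males and in no intact male. Its log2 signal was 4.84, 6.00, 5.21 and 5.79 in KO GDX males against 2.72, 2.38, 3.48 and 2.98 in KO intact males. In WT males it was 4.57, 8.85, 7.20 and 7.19 after gonadectomy against 2.97, 2.48, 3.56 and 2.59 with testes. All 8 intact males lay under 5, too dim to read, and Hamp passed the filter through other groups (10 of 24 arrays over 5). The differences of 2.57 ± 0.82 in KO and 4.05 ± 0.82 in WT males are therefore uncertain in size. The WT difference was 3.41 without WT GDX array 2, the brightest, and 4.84 without WT GDX array 1, the dimmest and the only one of the group without Cre.

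Hamp did not pass the test between genotypes in either sex. It stood at 4.32, 5.18, 3.80 and 4.28 in KO females against 3.12, 6.60, 7.11 and 8.53 in WT females. Only 1 of the 4 KO females was over 5, so the size of the female difference is uncertain. Of the WT females, array 1 lay below all KO females and the other 3 above them. The difference of -1.95 ± 0.82 did not pass (adjusted p 0.0721) but without WT female array 1 it was -3.02 (adjusted p 0.0016), and without WT GDX array 1, which enters through the shared spread, it was again -1.95 (adjusted p 0.0419). In males the mean difference was -0.75 ± 0.58 (adjusted p 0.538), made up of -1.49 ± 0.82 in GDX and -0.01 ± 0.82 in intact males. The female effect minus the male effect was -1.20 ± 1.00 (adjusted p 0.468).

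In XX glands Hamp stood above intact males in both genotypes on average. The WT female mean was 6.34 ± 2.30, 85.0% of the way between intact and GDX males, and its difference from their midpoint was 1.42 ± 0.71 (adjusted p 0.317, or 0.0206 without WT female array 1). The KO female mean was 4.39 ± 0.58, under the filter level of 5, with a difference from the KO midpoint of 0.22 ± 0.71 (adjusted p 0.838). The order of the means was WT GDX males, WT females, KO GDX males, KO females and the 2 intact male groups, and of neighbours only KO females and WT intact males did not overlap.

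Alb, the albumin gene, also varied between the female glands. Of 16 hepatocyte markers 15 were measured, 4 of them under 5 on all arrays, and the log2 of their summed signal was 9.48 to 9.96 in KO against 10.17 to 11.16 in WT females. Of the 11 tested, 2 were lower in KO females (Alb and Cyp2e1), where 18.7% of all genes were. Alb stood at 5.58, 5.48, 6.13 and 5.70 in KO against 4.94, 6.49, 8.82 and 7.21 in WT females, so that the WT female lowest in Hamp was also lowest in Alb, and the part of liver RNA in the WT female level was not tested beyond the next value. With the hepatocyte mean as a covariate the female Hamp difference was -1.37 (adjusted p 0.336). In GDX males Alb stayed near or under 5 (4.96 to 5.11 in KO GDX and 4.81 to 4.89 in WT GDX, against 4.68 to 4.83 in KO intact and 4.93 to 5.31 in WT intact males) while Hamp was over 5 in 3 of 4 arrays of each GDX group. The hepatocyte sum was 10.42 to 11.20 in KO GDX against 9.35 to 10.39 in KO intact males, and 9.77 to 11.47 in WT GDX against 9.72 to 10.90 in WT intact males. With Alb this dim, the sum in males rested mostly on other markers. Its highest and lowest WT GDX arrays were also those of the summed adipocyte markers (11.47 with 14.61 and 9.77 with 12.97), which was not so in KO GDX males. Whether the sum measures liver RNA in these glands was not tested. With the hepatocyte mean as a covariate the gonadectomy difference of Hamp was 2.16 in KO and 3.87 in WT males.

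**Figure D2:**
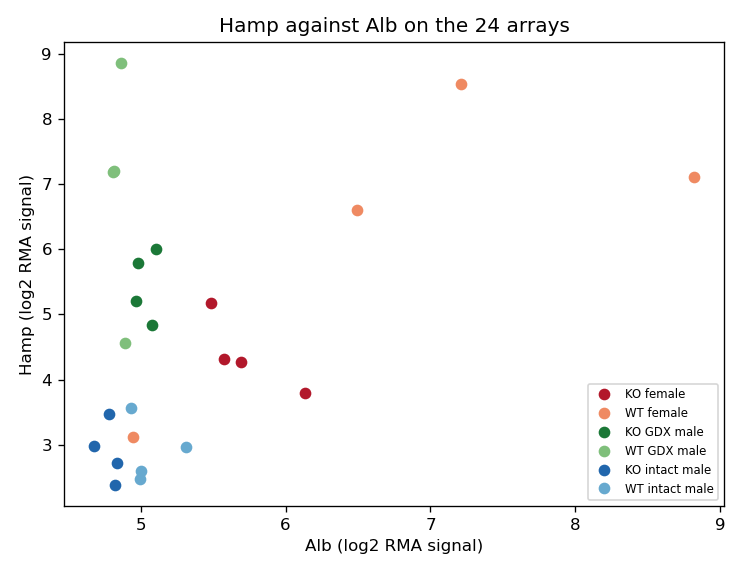
Log2 RMA signal of Hamp (vertical axis) against that of Alb (horizontal axis) on the 24 arrays, 1 point per array and coloured by group. The WT GDX males reach a Hamp signal of 8.85 with Alb at 4.81 to 4.89, while the 3 WT females high in Hamp (6.60 to 8.53) have Alb at 6.49 to 8.82.

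The neighbouring copy Hamp2 was under 5 on every array. Its signal was 3.88 to 4.11 in KO GDX against 3.64 to 3.97 in KO intact males and 3.91 to 4.54 in WT GDX against 3.61 to 4.02 in WT intact males. The Hamp probe set may still share sequence with Hamp2, since its probe sequences were not used here.

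Obp2a was brightest where Prkar1a was deleted and no testes were present. Its log2 signal was 4.46, 6.57, 9.11 and 7.23 in KO GDX males against 2.65, 3.23, 3.20 and 3.42 in KO intact males. In WT males it was 4.59, 3.97, 4.00 and 4.50 after gonadectomy against 3.13, 3.13, 2.72 and 2.90 with testes. The WT male groups all lay under 5, so that only in KO did gonadectomy bring the gene to a readable level, in 3 of 4 arrays. The difference was 3.71 ± 0.76 in KO and 1.30 ± 0.76 in WT males. Their difference of 2.42 ± 1.08 comes from the contrasts that chose the gene and was not tested.

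In females Obp2a stood at 8.55, 9.03, 5.50 and 7.90 in KO against 4.08, 5.26, 5.31 and 7.39 in WT. The groups overlapped through KO array 3 and WT array 4. The rise was 2.23 ± 0.76 (4.70-fold, adjusted p 0.0286), and the call ended on leaving out any of KO female arrays 1, 2 or 4 or WT female arrays 1, 2 or 3 (adjusted p 0.0603 to 0.106), while without KO array 3 the rise was 2.98 (adjusted p 0.00352). In males the mean difference was 1.36 ± 0.54 (adjusted p 0.170, or 0.0364 without KO GDX array 1), with 2.57 ± 0.76 in GDX and 0.16 ± 0.76 in intact males. The female effect minus the male effect was 0.87 ± 0.93 (adjusted p 0.588).

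In both genotypes females had the highest mean of Obp2a. The KO female mean of 7.75 ± 1.57 lay 2.76 ± 0.66 above the midpoint of the KO male groups (adjusted p 0.00236). The WT female mean of 5.51 ± 1.38 lay 1.89 ± 0.66 above that of the WT male groups, which did not pass (adjusted p 0.122). Both intact male groups and the WT GDX males lay under 5 on all arrays. Obp2a passed the filter through the other groups (10 of 24 arrays over 5). The midpoints thus rest partly or wholly on values too dim to read, and both differences are uncertain in size. The order of the means was KO females, KO GDX males, WT females, WT GDX males, KO intact males and WT intact males, with overlap between all neighbours but WT GDX and KO intact males. Its paralogue Obp2b stayed under 5 on every array (3.49 to 4.13 over the 24).

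**Figure D3:**
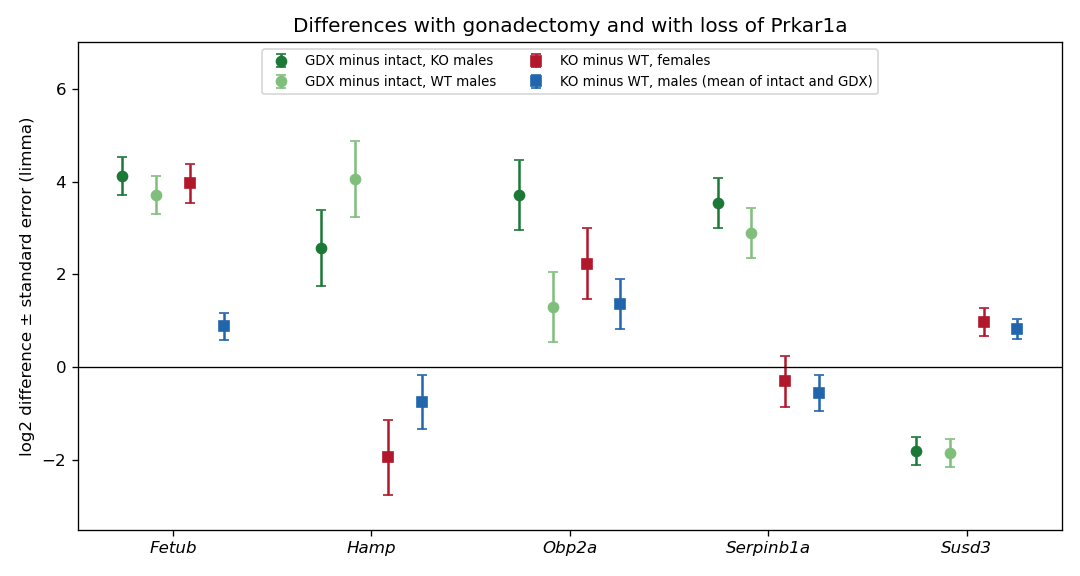
Log2 difference ± standard error from limma (vertical axis) of each gene (horizontal axis) for GDX minus intact in KO and WT males, which chose the genes, and for KO minus WT in females and in males averaged over GDX and intact. Gonadectomy and knockout point the same way in Fetub and Obp2a, and opposite ways in Hamp, Serpinb1a and Susd3, where only the Susd3 knockout differences passed the test.

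Serpinb1a was bright in all groups without testes. Its log2 signal was 9.80, 9.17, 9.73 and 9.55 in KO GDX males against 6.49, 4.50, 5.80 and 7.32 in KO intact males. In WT males it was 10.20, 9.59, 9.49 and 9.91 after gonadectomy against 9.18, 6.74, 6.05 and 5.68 with testes. The difference was 3.54 ± 0.54 in KO and 2.89 ± 0.54 in WT males, or 3.64 in WT without intact array 1. The 4 GDX arrays of each genotype lay close together, while the KO intact arrays spread from 4.50 to 7.32 and the WT intact arrays other than array 1 from 5.68 to 6.74.

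Between genotypes Serpinb1a did not pass in either test. It stood at 8.90, 9.23, 8.97 and 9.50 in KO against 9.30, 9.45, 9.57 and 9.51 in WT females, a difference of -0.31 ± 0.54 (adjusted p 0.711). That standard error is shared over all groups. The SD was 1.20 in KO and 1.58 in WT intact males against 0.27 in KO and 0.12 in WT females. The error is thus wide for the females, and the test says little about a small difference between them. The mean difference in males was -0.56 ± 0.38 (adjusted p 0.474), or -0.18 without WT intact array 1 (adjusted p 0.793). Both female means lay near the GDX level, at 88.3% (KO) and 88.1% (WT) of the way between intact and GDX males. The KO female mean of 9.15 ± 0.27 was 1.35 ± 0.47 above the KO midpoint (adjusted p 0.0281, or 0.0533 to 0.0844 without KO female arrays 2 or 4 or KO intact array 2). The WT female mean of 9.46 ± 0.12 was 1.10 ± 0.47 above the WT midpoint (adjusted p 0.226, or 0.0108 without WT intact array 1).

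Its order of means was WT GDX males, KO GDX males, WT females, KO females, WT intact males and KO intact males, with overlap between all neighbours. The overlap of KO females and WT intact males came from WT intact array 1, the only intact male over 9. Of the neighbouring copies, Serpinb1b was under 5 on all arrays, with means of 4.26 in KO GDX against 4.01 in KO intact males and 4.41 in WT GDX against 3.75 in WT intact males. The WT male arrays of Serpinb1b did not overlap, so the direction was that of Serpinb1a at a level too dim to read. Serpinb1c lay between 5.39 and 5.86 over the 24 arrays.

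Susd3 ran the other way, being brightest with testes. Its log2 signal was 6.17, 5.64, 6.25 and 6.30 in KO GDX males against 7.93, 8.44, 8.05 and 7.15 in KO intact males. In WT males it was 5.38, 5.14, 5.18 and 5.27 after gonadectomy against 5.71, 7.68, 7.51 and 7.49 with testes. The groups did not overlap in either genotype, although WT intact array 1 lay close to the GDX level. The difference was -1.80 ± 0.30 in KO and -1.85 ± 0.30 in WT males, or -2.31 in WT without that array.

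Susd3 was on average higher in KO than in WT glands of both sexes. It stood at 6.16, 6.05, 6.09 and 6.24 in KO females against 5.28, 5.14, 4.97 and 5.22 in WT females. The female groups did not overlap, and the rise was 0.98 ± 0.30 (1.98-fold, adjusted p 0.0162). In males the mean rise was 0.82 ± 0.21 (1.77-fold, adjusted p 0.0389, where 2.96% of all genes were called), with 0.84 ± 0.30 in GDX and 0.80 ± 0.30 in intact males. The male call was lost on leaving out any of 8 arrays (KO intact 1, 2 or 3, KO GDX 3 or 4, or WT GDX 2, 3 or 4, adjusted p 0.0534 to 0.0862). With the replicate number as a block it was 0.82 (adjusted p 0.0568). The female effect minus the male effect was 0.16 ± 0.37 (adjusted p 0.822). WT intact males carried no Cre and WT GDX males were of mixed genotypes. Loss of Prkar1a and control genotype thus cannot be told apart in the male rise. In intact males the Prkar1a difference itself did not pass.

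In XX glands Susd3 stood at the GDX level. The KO female mean of 6.14 ± 0.08 lay 97.4% and the WT female mean of 5.15 ± 0.13 lay 105% of the way between the intact and GDX means of their genotype. Against the midpoint of the male groups the difference was -0.86 ± 0.26 in KO females (adjusted p 0.0137). It was -1.02 ± 0.26 in WT females (adjusted p 0.029, where 3.82% of all genes were called), a call lost on leaving out any WT female, WT intact arrays 2, 3 or 4 or WT GDX array 1 (adjusted p 0.0513 to 0.0998). The order of means was KO intact males, WT intact males, KO females, KO GDX males, WT GDX males and WT females, and of neighbours only KO GDX and WT GDX males did not overlap.

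Counted over the 5 genes, 3 rose in KO against WT females (Fetub, Obp2a and Susd3) and none fell, where 13.9% of all genes rose and 18.7% fell. In males, 1 rose (Susd3), where 1.55% of all genes did. Against the midpoint of the male groups of their genotype, 3 were higher in KO females (Fetub, Obp2a and Serpinb1a) and 1 lower (Susd3), where 16.5% of all genes were higher and 20.3% lower. In WT females 1 was lower (Susd3), where 1.73% of all genes were. These comparisons use none of the gonadectomy differences, but share their arrays' spread and the filter. The choice of the genes still bears on the midpoint counts. For genes with a wide gap between GDX and intact males, a female level near either group lies off the midpoint. The shares over all genes are thus no like measure for the midpoint counts, and nothing is read from those counts.

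Serpinb1a and Susd3 mirrored each other. Over the 24 arrays Pearson's r was -0.92, and -0.81 after the group means were taken off, as a description with no test. Without WT intact array 1 these were -0.91 and -0.52 over 23 arrays. On that array Serpinb1a was 9.18 against 5.68 to 6.74 on the other 3, and Susd3 5.71 against 7.49 to 7.68. Akr1c18, a progesterone-inactivating enzyme of the X-zone, was 4.51 there against 4.10 to 4.26, so this marker did not stand near its GDX level of 12.04 to 12.66. Fetub and Obp2a had r of 0.82 (0.58 within groups), and Fetub and Hamp 0.48 (0.58 within groups). The within-group size for Serpinb1a and Susd3 exceeds these only with WT intact array 1.

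**Figure D4:**
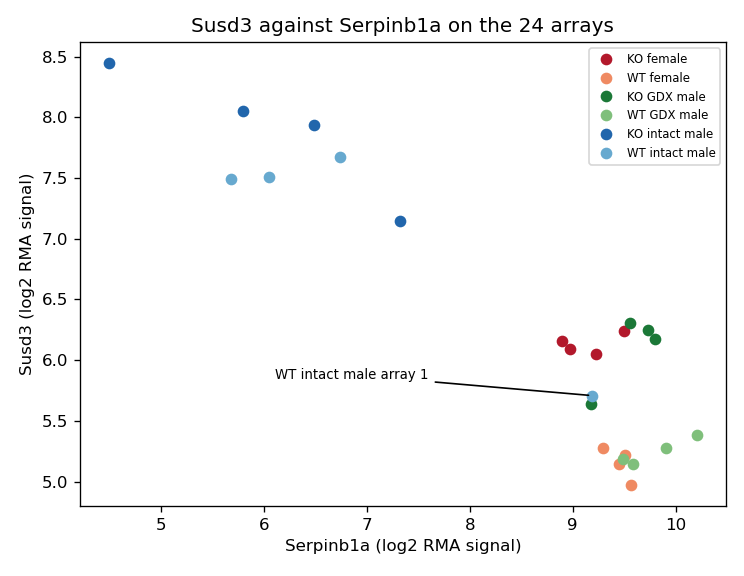
Log2 RMA signal of Susd3 (vertical axis) against that of Serpinb1a (horizontal axis) on the 24 arrays, 1 point per array and coloured by group. WT intact male array 1 (Serpinb1a 9.18, Susd3 5.71) lies among the females and GDX males, away from the other 7 intact males.

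Genes whose pattern over the 24 arrays was most like each member are given with r and no p. Serpinb1a was closest to Thrb, a thyroid hormone receptor gene marking the X-zone (r 0.96), Lrrn1 (0.95) and Adh1, an alcohol dehydrogenase (0.95). These 3 also stood high on WT intact array 1, with Thrb at 8.64 against 7.64 to 7.86 on the other 3. Susd3 was closest to Pfkfb2, a regulator of glycolysis (0.95), Magi1 (0.93) and Myo18a (0.92). Fetub was closest to Dock8 (0.95), the kinase gene Lrrk2 (0.95) and the R-spondin receptor gene Lgr4 (0.94). Likeness was lower for Obp2a (Mindy1 0.90, Col23a1 0.89 and Zfp174 0.89) and Hamp (Bnip3 0.85, Zfp750 0.84 and Nrep 0.84). All of these share arrays and groups.

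The partners of the members were read from lists of their families and pathways, without the members. Of 30 tested genes of hepcidin control and iron handling, 3 rose and 5 fell after gonadectomy in KO males (15.4% of all genes called), and 1 rose and 3 fell in WT males (4.50% called), with a median change of 0.04 in KO and 0.00 in WT against -0.01 over all genes in both. Hmox1, which frees iron from haem, fell in both (-1.32 ± 0.16, adjusted p 2.76e-05 in KO and -1.44 ± 0.16, adjusted p 1.43e-05 in WT). Slc40a1, encoding ferroportin, the target of hepcidin, fell by 0.86 ± 0.17 in KO (adjusted p 0.00232) and by 0.67 ± 0.17 in WT (adjusted p 0.0299). Aco1, an iron-sensing regulator, rose by 0.71 in KO and 0.48 in WT. Neo1, a partner of the BMP coreceptor hemojuvelin, fell by 0.48 in KO and by 0.38 in WT. In KO against WT females 7 of the 30 rose (13.9% of all genes did) and 7 fell (18.7% did), and in males none passed (2.96% of all genes called).

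Of 4 tested fetuin and cystatin genes, Ahsg, encoding the related fetuin-A, rose in WT GDX males (0.65 ± 0.16, adjusted p 0.0258), with 0.06 ± 0.16 in KO, where Cst3 and Cstb fell. Ahsg is also on the hepatocyte list. No lipocalin of 9 tested passed after gonadectomy, where 15.4% of all genes were called in KO and 4.50% in WT males. In KO females Lcn2, an iron-siderophore carrier, rose (1.14) while Mup3 (-1.65), Rbp4 (-0.70) and Apod (-0.49) fell. No clade B serpin of 5 passed after gonadectomy. Serpinb9, an inhibitor of granzyme B, was lower in KO females (-0.44) and KO males (-0.27, adjusted p 0.0198, where 2.96% of all genes were called). A further list set against these serpins had 12 genes tested, all proteases but Gsdmd, which encodes gasdermin D. In KO females 3 of them rose (Ctsd, Ctsh and Ctsl) and Plat fell (-0.34, adjusted p 0.018), where 13.9% of all genes rose and 18.7% fell. In KO GDX against KO intact males the same 3 rose and Gsdmd fell (15.4% of all genes called). None of the list passed after gonadectomy in WT males (4.50% called). Ctsl, a lysosomal cathepsin, rose in KO females (2.05 ± 0.21, adjusted p 4.48e-07), in KO males on average (0.85, adjusted p 0.00267) and in KO GDX against KO intact males (1.23). No sushi domain gene of 11 passed after gonadectomy, and Susd4 (-0.53) and Srpx2 (-0.44) fell in KO females. These lists are short beside the shares over all genes, and nothing is read from a list with no gene called.

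Among 12 genes of sex steroid action, 1 rose and 2 fell after gonadectomy in KO (Akr1c18, with Ncoa1 and Ncoa3 lower; 15.4% of all genes called) and 2 rose in WT males (Akr1c18 and Hsd17b1; 4.50% called). Akr1c18 rose after gonadectomy by 4.00 ± 0.73 in KO (adjusted p 0.00107) and 8.11 ± 0.73 in WT males (adjusted p 1.28e-06). Of 9 androgen response genes, 3 fell and none rose in KO (Fkbp5, Ndrg1 and Slc45a3), and 1 rose and 1 fell in WT. Slc45a3 fell in both (-0.92 in KO and -0.56 in WT). Acpp, a prostatic acid phosphatase, rose in WT (3.08 ± 0.26) and had 0.65 ± 0.26 in KO (adjusted p 0.0953).

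Other cells of the gland moved with some of these comparisons. The summed X-zone level was 12.87 to 12.97 in KO GDX against 9.73 to 11.49 in KO intact males and 12.37 to 12.89 in WT GDX against 9.50 to 9.74 in WT intact males. In females it was 12.94 to 13.14 in KO against 11.16 to 12.59 in WT, though of 4 genes tested 0 were called higher and 1 lower. The group means of Akr1c18, part of this sum, had the same order as those of Fetub. Its female difference did not pass (1.67 ± 0.73, adjusted p 0.0855). The part of X-zone cells in the Fetub level was not tested. In KO males 5 of 13 medulla and 4 of 9 endothelial markers were lower and 2 of 10 adipocyte markers higher after gonadectomy (15.4% of all genes called). The mast cell sum (7 markers, 5 of them under 5 on all arrays) was 7.98 to 8.90 in WT GDX against 7.55 to 7.68 in WT intact males and 7.18 to 7.49 in KO against 7.73 to 8.40 in WT females, with Cpa3 called in both, and 7.38 to 7.87 in KO GDX against 7.27 to 7.90 in KO intact males. Hamp also averaged higher in WT GDX than in WT intact males and lower in KO than in WT females. It was higher too in KO GDX than in KO intact males (2.57 ± 0.82), where the mast cell sums overlapped. The part of mast cells in the Hamp level was not tested. Between the females, the adipocyte sum was 11.38 to 12.10 in KO against 13.02 to 13.81 in WT, with 7 of 10 markers lower, and the medulla sum 13.20 to 13.74 in KO against 13.83 to 14.13 in WT, with 9 of 13 lower. All 8 glomerulosa and 7 of 8 capsule markers were lower and 4 of 13 macrophage markers higher in KO females (18.7% of all genes were lower and 13.9% higher). With the medulla or adipocyte mean as a covariate, the female rise of Fetub was 3.52 or 3.78 and that of Susd3 1.31 or 1.37, all still called, while that of Obp2a was 1.71 or 1.64 and no longer called (adjusted p 0.250 and 0.229). Of 12 markers of neutrophils, the cells whose proteases Serpinb1a inhibits, 6 were under 5 on all arrays. None of the 4 tested passed after gonadectomy in KO or WT males, where 15.4% and 4.50% of all genes were called. In KO against WT females 2 of the 4 were higher (Cxcr2 and Csf3r), where 13.9% of all genes were.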

How the data were processed

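Whole adrenal RNA (500 ng of total RNA per array) was hybridised to 24 Affymetrix arrays. The deposited values are log2 signals per probe set that the authors made with RMA, per the submitters' processing notes, with the software version not given in the sources used here. Probe sets (32202) were named by the platform annotation: 22943 had 1 symbol, 1731 several and 7528 none, and the last 2 kinds were not used. Each gene was read from its probe set with the highest mean, and 14411 of 21957 genes passed a log2 signal of 5 in at least 4 arrays. Array medians were 5.20 to 5.29, and replicates correlated at 0.988 to 0.995. The number of arrays limits the precision.

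A model of 6 group means over all 24 arrays was fitted with limma 3.58.1 in R 4.3.3 and tested on simulated data. Every adjusted p in the text is from limma with Benjamini-Hochberg adjustment over all genes tested, called at 0.05. The members and lists were chosen with earlier results of these data known. Gonadectomy differences chose the members, so members were tested only in comparisons orthogonal to them. These were KO against WT in females and, as a mean over intact and GDX, in males. They also included females against the midpoint of the male groups, and the female minus the male knockout effect. Those that use male groups are free of the choice only where these groups have equal spread. That was not so for some members (Hamp SD 1.77 in WT GDX against 0.49 in WT intact males, Serpinb1a 0.32 against 1.58). Named genes were the members, Prkar1a, the 3 most correlated genes per member, and up to 4 genes per family list with the largest change among those called, after gonadectomy in WT males or else in KO females. Others named from the lists (Cst3, Cstb, Gsdmd, Ncoa1, Ncoa3, Fkbp5 and Ndrg1), the copies Hamp2, Obp2b, Serpinb1b and Serpinb1c, the markers, Xist and Alb were named after their values were seen. Start-site windows are RefSeq's (GRCm38.p6). Alternatives were the filter, probe sets, normalization, variance model, array weights, arrays fitted, replicate number as a block, single arrays, WT genotypes and marker means as covariates. Same-numbered samples deviated together between KO GDX and WT GDX males (all 4 pairs over 0.1, r 0.12 to 0.24), so the numbers may pair these 2 groups, and in no other pair of groups did all 4 pass 0.1 (60 pairs, median r 0.005, 16 over 0.1). WT intact and WT GDX males came near this (r 0.15, 0.17, 0.24 and 0.09), so the numbers may pair them too. The labels do not say what a number marks.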

Additional observations from a re-analysis of the deposited data

Results flagged for a closer look

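Susd3 in WT intact males held 1 array far from the others, array 1 at 5.71 against 7.49 to 7.68 on the other 3. Of 30 gene and group pairs so examined it was the only one past Dixon's critical value, where chance gives about 1 in 20. Fetub's knockout effect in females exceeded the mean effect in males by 3.08 on the log2 scale (adjusted p 0.000617 in limma), by a test of the difference itself. The female and male controls differ in genotype, and KO females and KO males differ in Prkar1a level. Sex, control genotype and Prkar1a level cannot be told apart here.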

How the results depend on the processing

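Over the alternatives run, excluding single arrays left out, 386 of 415 values of the 5 genes counted as unchanged. For the tested comparisons this means the same direction and side of the threshold. For the gonadectomy differences, which have no test, it means a shift smaller than the largest SD of the groups compared. The cause of the changes below was not tested. With the medulla mean as covariate, genes called were 2539 (KO females), 667 (KO females against the midpoint), 261 (female minus male effect) and 890 (GDX in KO males). Hamp was then -2.93 in KO females, -1.31 against the KO midpoint and 1.87 for GDX in KO, Obp2a 1.71 and 1.94, Serpinb1a 0.84 and -0.18 (female minus male), and Susd3 0.71 in males and -0.34 against the KO midpoint. With the adipocyte mean, Obp2a was 1.64 in KO females, Serpinb1a 1.04 and Susd3 -0.62 against the KO midpoint, and Serpinb1a -0.14 for female minus male. With the hepatocyte mean, Obp2a was 2.39 in KO females, Fetub 0.0093 and Susd3 -1.13 against the WT midpoint, Serpinb1a -0.19 for female minus male, and 1165 genes were called there. With the replicate block, Hamp in KO females was -1.95 (adjusted p 0.0467) and Susd3 in males 0.82 (adjusted p 0.0568), and no other member's call changed.

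Without WT GDX arrays 1 to 3, genes called were 92 (KO males), 276 (WT midpoint) and 56 (GDX in WT), Hamp in KO females -1.95 (adjusted p 0.0449), and Susd3 0.81 in males and -1.03 against the WT midpoint. With array weights, genes called were 762, 1112 and, for GDX in KO, 3599, with Fetub 0.97 and Obp2a 1.74 in males. With only the arrays compared, genes called were 244 (KO males) and 149 (GDX in WT), Obp2a 2.23 in KO females (adjusted p 0.0731) and 1.89 against the WT midpoint (adjusted p 0.0323), and Susd3 0.82 in males (adjusted p 0.103) and -1.02 (adjusted p 0.0776). This was not run for the female minus male effect, which uses all groups. Without the filter Susd3 in males was 0.82 (adjusted p 0.0513).

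Leaving out single arrays gave 198 to 773 genes called in KO males, 323 to 699 against the WT midpoint, 292 to 788 for GDX in WT and 1374 to 2662 for GDX in KO. Hamp ranged from -3.02 to -1.22 in KO females, 0.69 to 2.49 against the WT and -0.0422 to 0.42 against the KO midpoint. Obp2a ranged from 1.76 to 2.98 in KO females and 0.99 to 1.76 in males, and Fetub from 0.75 to 1.07 in males and -0.35 to 0.19 against the WT midpoint. Serpinb1a ranged from 0.90 to 1.48 and 1.10 to 1.57 against the WT and KO midpoints and -0.13 to 0.47 for female minus male. Susd3 ranged from 0.59 to 0.95 in males and -1.25 to -0.92 against the WT midpoint. Signals under 5 limit Hamp and Obp2a in intact males, Obp2a also in WT GDX males, and Hamp in all but 1 of the KO females.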
